A study of Homo sapiens with 48 samples.

Results

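The genes described here are 38 targets and effectors of the transcription factors ATF4 and CHOP (the product of DDIT3), chosen by symbol from the 33892 rows of the count table. They were followed across 8 established human cancer cell lines treated for 24 h with carfilzomib, which inhibits the proteasome irreversibly, or with its solvent DMSO. Colon cancer is represented by RKO and DLD-1, lung cancer by H-23 and H-1299, pancreatic cancer by PANC-1 and CAPAN-2, and multiple myeloma by H-929 and RPMI, each with 3 DMSO and 3 carfilzomib libraries labelled as biological triplicates. Carfilzomib was dosed for each line at its IC50 for proteasome activity. The concentrations are not in the labels used here. The groups carried no other agent or engineered allele per the labels and each line stands alone for its genotype.

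When unfolded protein, amino acid shortage, heme shortage or viral RNA activates one of the eIF2 kinases, phosphorylated eIF2 slows most protein synthesis while the mRNA of ATF4 is translated more. ATF4 pairs with C/EBP family proteins and activates genes that make, import and charge amino acids, together with DDIT3, whose product CHOP is a proapoptotic factor, and feedback genes such as PPP1R15A, which directs the removal of the phosphate from eIF2. Part of ATF4's control is exerted on its protein, so its mRNA is not a full readout of its activity. Myeloma cells are malignant plasma cells, which secrete large amounts of immunoglobulin and depend strongly on the proteasome.

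Library totals ran from 9.12 to 64.4 M (mega) counts, which set the counting error and bear on which genes can be tested. In H-929 they were 9.12 to 9.93 M after carfilzomib and 14.6 to 18.9 M in DMSO. In H-1299 they were 24.0 to 35.4 M after carfilzomib and 38.5 to 64.4 M in DMSO. The labelled cell types were checked against marker lists of 5 genes each. The summed level of the plasma cell list lay between 2238 and 4788 CPM in the DMSO libraries of the myeloma lines, where all 5 genes were detected, and reached at most 421 CPM in those of the other lines. Levels are in CPM, counts scaled by the library total times its TMM composition factor. The carcinoma epithelium list was low in RKO, with 128 to 152 CPM in DMSO, against at least 969.6 CPM in the other 5 carcinoma lines. In DMSO it summed to 44.7 to 58.9 CPM in H-929 and 220.9 to 227.4 CPM in RPMI, so this list did not set RKO apart from the myeloma lines. In H-1299 it was lower after carfilzomib, at 360.3 to 399.5 CPM beside 969.6 to 1065 CPM in DMSO, and its part in the responses of that line was not tested. In H-1299, DMSO replicate 2 read lower than replicates 1 and 3 for many of the 38 genes, and the effect of leaving it out is given where it ends a call.

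ATF4 dimers bind C/EBP-ATF response elements, and the stretches shown here are those upstream matches to the core TGATGNAA, on either strand, found among the 38 genes. Promoters were RefSeq windows of build GRCh38.p14, from 250 bases before to 50 bases after the start, which matched 30 of the 38 symbols. The motif was present in 8 of these 30 (26.7%), beside 4.46% of all 27305 genes with a window. This is a description of letters, not of binding. A gene could have more than 1 window: ASNS, CEBPG and SLC1A4 had 2, and SLC1A5 and JDP2 had 3. Upstream and downstream refer to the RefSeq start of the window that held the match. This start need not be the outermost one of the gene. All 6 stretches shown lie inside the gene bounds of GENCODE release 29. The stretches lie at chr7:97872424-97872521 (minus strand) for ASNS, chr15:40953221-40953314 (plus strand) for CHAC1, chr19:33374026-33374122 (plus strand) for CEBPG, chr19:46784859-46784956 (minus strand) for SLC1A5, chr14:75427961-75428031 (plus strand) for JDP2 and chr2:64989347-64989408 (plus strand) for SLC1A4. They are written 5′ to 3′ along the gene, with the match in capitals.
ASNS: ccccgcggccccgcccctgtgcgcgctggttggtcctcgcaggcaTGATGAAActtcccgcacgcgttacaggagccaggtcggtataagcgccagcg
CHAC1: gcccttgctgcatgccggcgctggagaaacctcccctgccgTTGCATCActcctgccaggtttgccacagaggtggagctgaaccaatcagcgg
CEBPG: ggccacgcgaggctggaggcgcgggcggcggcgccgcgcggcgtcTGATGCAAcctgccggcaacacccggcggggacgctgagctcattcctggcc
SLC1A5: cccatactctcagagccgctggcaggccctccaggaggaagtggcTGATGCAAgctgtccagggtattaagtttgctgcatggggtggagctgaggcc
JDP2: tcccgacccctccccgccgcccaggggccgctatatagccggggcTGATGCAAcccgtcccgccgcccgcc
SLC1A4: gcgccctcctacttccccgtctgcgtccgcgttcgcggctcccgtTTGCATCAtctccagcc
Relative to the RefSeq start used, the matches begin 68 bases upstream in ASNS, 209 in CHAC1, 42 in CEBPG, 97 in SLC1A5 and 16 in JDP2. That of SLC1A4 begins 7 bases upstream and crosses this start. SLC3A2 and SLC7A1 hold the motif downstream of the start. The 6 genes shown did not respond alike: ASNS, CHAC1 and CEBPG rose in RPMI and fell in H-1299, whereas SLC1A4 fell in both, as described below for each. No window was listed for NUPR1, SHMT2, PYCR1, EIF4EBP1, GPT2, ALDH1L2, INHBE and PSPH.

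The first comparison asked, within each line, which of the genes differed between carfilzomib and DMSO. The test was edgeR's quasi-likelihood F test on the 6 libraries of a line, and a call is an adjusted p under 0.05 by the Benjamini-Hochberg method over all genes tested in that line. Of the 38 genes, 37 passed the filter on low counts in at least 1 line and 31 in all 8. SESN2 passed in none: its row held 10 counts over 48 libraries, and a second row with the same identifier held 624, so its level is uncertain and no response is given.

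RPMI was the line in which these genes rose: 30 of 35 tested were higher after carfilzomib and 2 were lower, where 31.3% of all genes tested in RPMI were called higher and 32.2% lower. Their median log2 fold change was 1.21, beside 0.01 for all genes. In the other myeloma line, H-929, 9 were higher and 17 lower of 35 (all genes: 26.4% higher, 26.2% lower), with a median of -0.30. DLD-1 and PANC-1 leaned the other way. DLD-1 had none higher and 29 lower of 36 (all genes: 10.9% higher, 12.1% lower; median -0.56), and PANC-1 had 2 higher and 29 lower of 36 (all genes: 20.5% and 18.2%; median -0.49). DESeq2's Wald test also gave 0 genes higher in DLD-1, and at an unadjusted p under 0.05 edgeR gave 1, CTH.

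In H-1299, 4 of the genes were higher and 26 lower of 35 (all genes: 29.8% and 31.3%; median -0.54). CAPAN-2 gave 8 higher and 19 lower of 35 (all genes: 25.7% and 26.7%; median -0.34). H-23 was mixed, with 7 higher and 13 lower of 36 (all genes: 17.7% and 16.2%; median -0.05). RKO changed least, with 4 higher and 6 lower of 35 (all genes: 3.62% and 5.28%; median -0.03). In RKO, leaving out 1 library at a time left 2 genes higher in 5 of 6 fits, all but that without DMSO replicate 1, with the calls of PSPH and PYCR1 lost. Of the 37 tested genes, 32 were called higher in at least 1 line and lower in another. Among the 31 tested in all 8 lines this held for 26, a share to be set beside 47.8% of all 11622 genes tested in all lines.

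**Figure D1:**
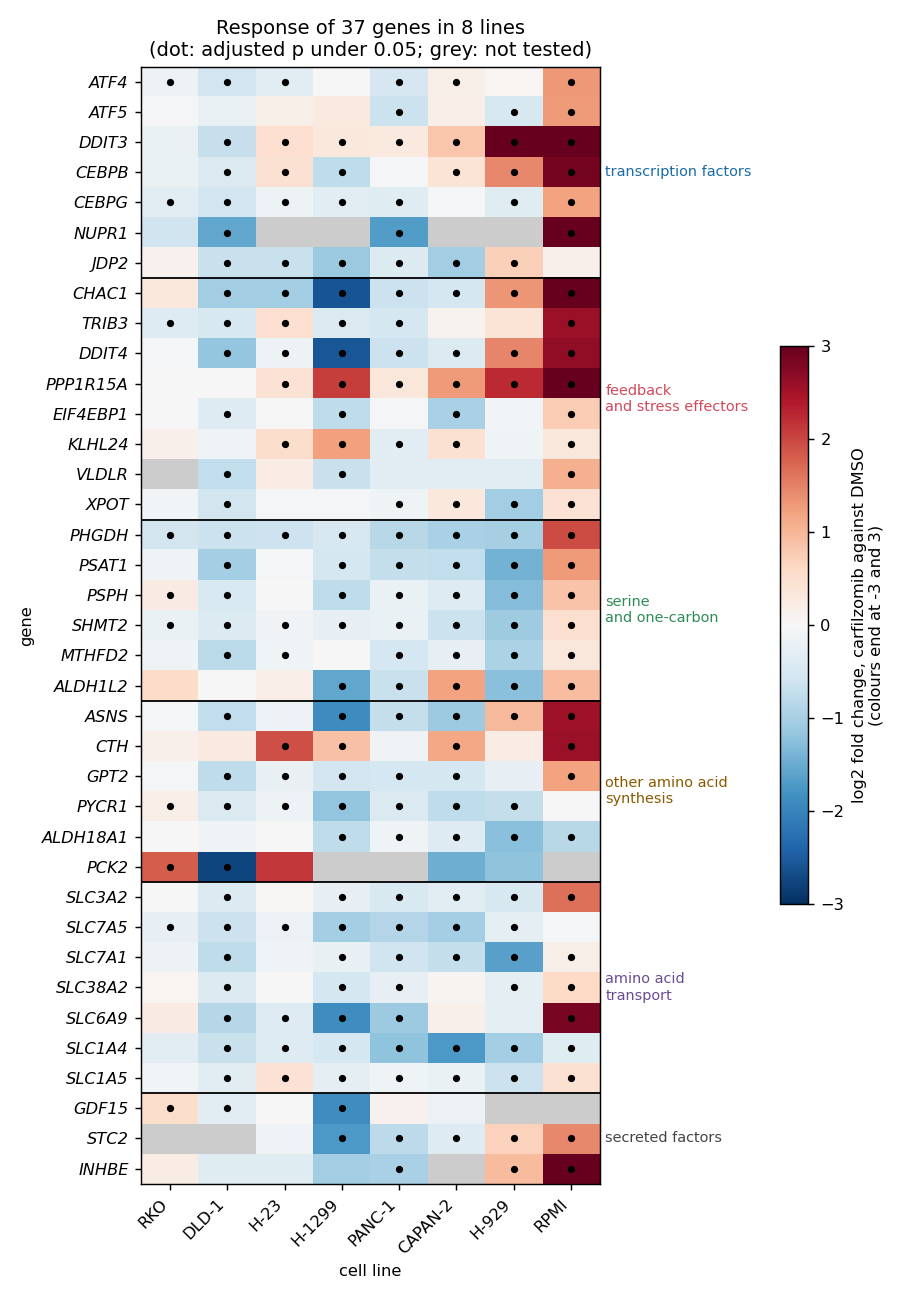
Log2 fold change (carfilzomib against DMSO, colour, ending at -3 and 3) of the 37 tested genes (rows, grouped by role) in the 8 lines (columns). Dots mark adjusted p under 0.05 and grey cells were not tested; the RPMI column holds 30 called rises and the DLD-1 column none.

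Among the transcription factors, ATF4 (ENSG00000128272, GRCh38 chromosome 22, 39519695 to 39522685, plus strand) had its largest change in RPMI. Its mRNA rose in RPMI and CAPAN-2, fell in RKO, DLD-1, H-23 and PANC-1, and had no call in H-1299 and H-929. In RPMI it read 390.1, 373 and 366 CPM in the DMSO libraries and 927, 969.9 and 889 CPM in the carfilzomib libraries, a log2 fold change of 1.30 ± 0.054 (SE, adjusted p = 2.0e-10). The RPMI groups lay far apart.

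In H-929, ATF4 read 857, 855.04 and 765 CPM in the DMSO libraries and 825, 858 and 908 CPM in the carfilzomib libraries, and the groups overlapped, with a log2 fold change of 0.06 ± 0.073 (SE, adjusted p = 0.48). DLD-1 was the line of its largest fall, with 839.96, 815 and 819 CPM in the DMSO libraries and 521, 597 and 549.9 CPM in the carfilzomib libraries, a log2 change of -0.57 ± 0.050 (SE, adjusted p = 3.4e-05). On a scale common to all 48 libraries, ATF4 averaged 889 CPM in DMSO in H-929, the highest of the 8 lines in DMSO. After carfilzomib RPMI was the highest of the 8 lines, at 990.3 CPM. These 2 levels were not compared by a test. The calls in RKO and CAPAN-2 were small, -0.18 and 0.19 on the log2 scale. That in RKO was lost without DMSO replicate 3, carfilzomib replicate 2 or carfilzomib replicate 3, and that in CAPAN-2 without carfilzomib replicate 2.

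DDIT3 (ENSG00000175197, GRCh38 chromosome 12, 57516588 to 57521737, minus strand) was higher in 6 lines and lower in DLD-1. H-929 and RPMI showed its largest rises, from low basal levels. H-929 read 16.8, 13.3 and 13.8 CPM in the DMSO libraries and 133, 128 and 154 CPM in the carfilzomib libraries, a log2 fold change of 3.24 ± 0.12 (SE, adjusted p = 8.2e-11). RPMI libraries read 8.55, 6.91 and 7.33 CPM in the DMSO libraries and 70.9, 72.4 and 74.9 CPM in the carfilzomib libraries. In both myeloma lines every carfilzomib library lay far above every DMSO library.

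In the carcinoma lines the changes of DDIT3 were smaller. CAPAN-2 gave 27.7, 27.3 and 28.6 CPM in the DMSO libraries and 52.4, 46.9 and 49.8 CPM in the carfilzomib libraries, a log2 fold change of 0.83 ± 0.062 (SE, adjusted p = 4.5e-08), and the groups did not overlap. The rise was 0.50 ± 0.047 in H-23 and 0.29 ± 0.035 in PANC-1 (log2, SE), and in RKO the log2 change was -0.19 ± 0.080 (SE, adjusted p = 0.17), with no call. In H-1299 the groups overlapped, at 46.7, 34.9 and 48.6 CPM in the DMSO libraries and 61.5, 53.2 and 47.6 CPM in the carfilzomib libraries. That call, 0.32 ± 0.12 (SE, adjusted p = 0.03), was lost without DMSO replicate 2, carfilzomib replicate 1 or carfilzomib replicate 2, under library totals and in DESeq2. DDIT3 exons overlap MARS1 and MBD6 on the opposite strand and AC022506.1 on the same strand. The use of strand in counting is not given in the sources used here, so reads of these genes cannot be told apart. MARS1 changed by -0.63 in H-929 and 1.02 in RPMI, and MBD6 by 0.23 and 1.73 (log2). In DLD-1 and PANC-1, MARS1 changed by -0.51 and -0.61, where DDIT3 changed by -0.69 and 0.29. In RKO, H-23, H-1299 and CAPAN-2, MARS1 changed by between -0.17 and -0.06. These changes do not bound how many reads of the neighbours were counted for DDIT3.

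CEBPB, a C/EBP partner of ATF4, also rose in both myeloma lines. It read 13.3, 12.97 and 10.8 CPM in the DMSO libraries and 90.7, 82.2 and 93.7 CPM in the carfilzomib libraries in RPMI, a log2 fold change of 2.86 ± 0.085 (SE, adjusted p = 1.5e-11). In H-929 it rose by 1.45 ± 0.10 (log2, SE), in H-23 and CAPAN-2 by 0.46 and 0.42, and it fell in DLD-1 and H-1299. The H-1299 fall was -0.77, and the DLD-1 call, -0.44, was lost without DMSO replicate 1 or 2 or carfilzomib replicate 1 or 3. CEBPG, another C/EBP partner, fell in 6 lines, with log2 changes from -0.15 in H-23 to -0.59 in DLD-1, and rose in RPMI by 1.21. Its call in H-23 was lost without DMSO replicate 2 or 3 or carfilzomib replicate 1.

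ATF5, a stress-regulated relative of ATF4, rose in RPMI by 1.27 ± 0.16 and fell in PANC-1 and H-929, with log2 changes of -0.64 and -0.49. Its DMSO level differed more widely than its response, from 8.44 CPM in DLD-1 to 479.9 CPM in H-929 on the common scale. JDP2, an AP-1 family repressor, fell in 5 lines, most in H-1299 (-1.11), and was called higher in H-929 by 0.71, a call that was lost without DMSO replicate 1 or 3 or carfilzomib replicate 1 or 3.

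NUPR1, a small stress-induced chromatin protein, supplied the largest called fall of the 38 genes in 2 lines by the naming rule. In PANC-1 it read 47.3, 56.1 and 53.8 CPM in the DMSO libraries and 16.2, 17.8 and 15.4 CPM in the carfilzomib libraries, a log2 change of -1.67 ± 0.072 (SE, adjusted p = 5.5e-09). DLD-1 gave 5.52, 4.77 and 4.68 CPM in the DMSO libraries and 1.47, 2.35 and 1.22 CPM in the carfilzomib libraries and a log2 change of -1.56 ± 0.22 (SE, adjusted p = 6.4e-04). The groups were apart in both lines. RPMI moved the other way at a very low level, with 0.233, 0.0708 and 0.163 CPM in the DMSO libraries and 3.31, 2.25 and 2.27 CPM in the carfilzomib libraries and a fitted log2 change of 4.10 ± 0.43 (SE, adjusted p = 1.6e-06).

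Of the feedback genes and effectors, PPP1R15A (ENSG00000087074, GRCh38 chromosome 19, 48872392 to 48876057, plus strand), which encodes GADD34, the regulatory subunit that brings protein phosphatase 1 to eIF2, was called higher in 6 lines. H-929 read 219, 222 and 212 CPM in the DMSO libraries and 997, 996 and 1077 CPM in the carfilzomib libraries, a log2 fold change of 2.23 ± 0.071 (SE, adjusted p = 2.0e-11). In RPMI the values were 22.1, 17.6 and 14.6 CPM in the DMSO libraries and 129, 141 and 156 CPM in the carfilzomib libraries, a log2 fold change of 3.01 ± 0.11 (SE, adjusted p = 1.1e-10). Within each of these lines the carfilzomib libraries lay several fold above the DMSO libraries.

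PPP1R15A was also the largest called rise among the 38 genes in H-1299, CAPAN-2 and PANC-1. H-1299 gave 25.4, 28.7 and 27.6 CPM in the DMSO libraries and 112, 117 and 114 CPM in the carfilzomib libraries, a log2 fold change of 2.07 ± 0.056 (SE, adjusted p = 4.6e-11), in a line where 26 of the genes fell. CAPAN-2 gave 60.3, 61.2 and 64.1 CPM in the DMSO libraries and 152, 146 and 148 CPM in the carfilzomib libraries, with 1.27 ± 0.055 (SE, adjusted p = 2.3e-10). In PANC-1 the rise was small, 0.34 ± 0.050 (SE, adjusted p = 1.4e-04), although the groups did not overlap. In the colon lines there was no call, with log2 changes of -0.01 ± 0.042 (SE, adjusted p = 0.94) in RKO and 0.01 ± 0.055 (SE, adjusted p = 0.95) in DLD-1. RKO had the highest DMSO level of the 8 lines, 380.5 CPM on the common scale, and RPMI the lowest, 20.3 CPM.

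CHAC1 (ENSG00000128965, GRCh38 chromosome 15, 40952962 to 40956519, plus strand), an enzyme that degrades glutathione, rose in the myeloma lines and fell in 5 carcinoma lines. RPMI read 3.84, 1.56 and 1.22 CPM in the DMSO libraries and 20.6, 21.8 and 22.1 CPM in the carfilzomib libraries, a log2 fold change of 3.41 ± 0.28 (SE, adjusted p = 1.6e-07). H-929 read 34.1, 32.9 and 26.5 CPM in the DMSO libraries and 72.03, 68.5 and 92.6 CPM in the carfilzomib libraries, with 1.32 ± 0.13 (SE, adjusted p = 1.7e-06). In H-1299 it was the largest called fall of the 38 genes, at 57.9, 47.1 and 70.9 CPM in the DMSO libraries and 10.3, 10.4 and 8.13 CPM in the carfilzomib libraries and -2.60 ± 0.14 (SE, adjusted p = 8.1e-09). The groups were apart in all 3 lines, in opposite directions.

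H-23 had CHAC1 as its largest called fall too, with 12.1, 12.8 and 13.4 CPM in the DMSO libraries and 6.93, 5.03 and 6.63 CPM in the carfilzomib libraries and a log2 change of -1.05 ± 0.12 (SE, adjusted p = 1.6e-05). The log2 changes in DLD-1, PANC-1 and CAPAN-2 were -1.04, -0.64 and -0.54. The call in CAPAN-2 was lost without carfilzomib replicate 1. RKO gave 18.98, 13.5 and 15.9 CPM in the DMSO libraries and 20.7, 19.2 and 20.04 CPM in the carfilzomib libraries and no call (0.31 ± 0.13 (SE, adjusted p = 0.18)).

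DDIT4, also known as REDD1, an inhibitor of mTORC1 signalling (ENSG00000168209), split the lines in the same directions. H-1299 read 112, 58.3 and 128 CPM in the DMSO libraries and 17.004, 18.02 and 15.2 CPM in the carfilzomib libraries, a log2 change of -2.57 ± 0.23 (SE, adjusted p = 6.5e-07). RPMI read 55.5, 55.1 and 59.4 CPM in the DMSO libraries and 345, 353 and 376 CPM in the carfilzomib libraries, with 2.66 ± 0.059 (SE, adjusted p = 2.0e-12). DMSO replicate 2 of H-1299 was the lowest of its group, yet well above the carfilzomib libraries. H-929 rose from 97.6, 105 and 80.1 CPM in the DMSO libraries and 241, 241 and 299.8 CPM in the carfilzomib libraries, a log2 fold change of 1.47 ± 0.11 (SE, adjusted p = 1.0e-07). Falls were also called in DLD-1 (-1.16), PANC-1 (-0.64), CAPAN-2 (-0.40) and H-23 (-0.15), the last lost without DMSO replicate 2 or 3 or carfilzomib replicate 1 or 2.

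TRIB3 (ENSG00000101255, GRCh38 chromosome 20, 362835 to 397559, plus strand), a pseudokinase that inhibits ATF4 and CHOP activity, rose in RPMI and H-23. In RPMI it read 75.1, 67.5 and 63.6 CPM in the DMSO libraries and 432, 427 and 373 CPM in the carfilzomib libraries, a log2 fold change of 2.58 ± 0.076 (SE, adjusted p = 1.3e-11), with the groups far apart. H-23 read 15.6, 16.4 and 15.6 CPM in the DMSO libraries and 21.9, 21.1 and 24.1 CPM in the carfilzomib libraries, with 0.50 ± 0.071 (SE, adjusted p = 1.0e-04). In H-929 the libraries read 24.2, 24.02 and 29.8 CPM in the DMSO libraries and 30.01, 27.02 and 46.8 CPM in the carfilzomib libraries. The H-929 groups overlapped, and the change of 0.41 ± 0.18 (SE, adjusted p = 0.067) was not called.

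TRIB3 fell in RKO (-0.40), DLD-1 (-0.48), PANC-1 (-0.53) and H-1299 (-0.44). The H-1299 call rested on a wide DMSO group, with 69.1, 43.9 and 80.4 CPM in the DMSO libraries and 52.2, 47.3 and 42.7 CPM in the carfilzomib libraries, and was lost without DMSO replicate 1 or 3 or carfilzomib replicate 2 or 3, and in DESeq2. KLHL24, a ubiquitin ligase adaptor, rose in 4 lines, most in H-1299 with 53.7, 34.3 and 48.3 CPM in the DMSO libraries and 103, 108 and 109.9 CPM in the carfilzomib libraries and a log2 fold change of 1.23 ± 0.12 (SE, adjusted p = 1.3e-06), and fell in PANC-1. EIF4EBP1, which blocks the cap-binding factor eIF4E, fell in DLD-1, H-1299 and CAPAN-2 and rose in RPMI, between -0.98 and 0.77. XPOT, the exporter of tRNA from the nucleus, ranged from -1.05 in H-929 to 0.43 in RPMI, and its PANC-1 call, -0.13, was lost without DMSO replicate 3. VLDLR, a lipoprotein receptor, ranged from -0.74 in DLD-1 to 1.06 in RPMI.

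**Figure D2:**
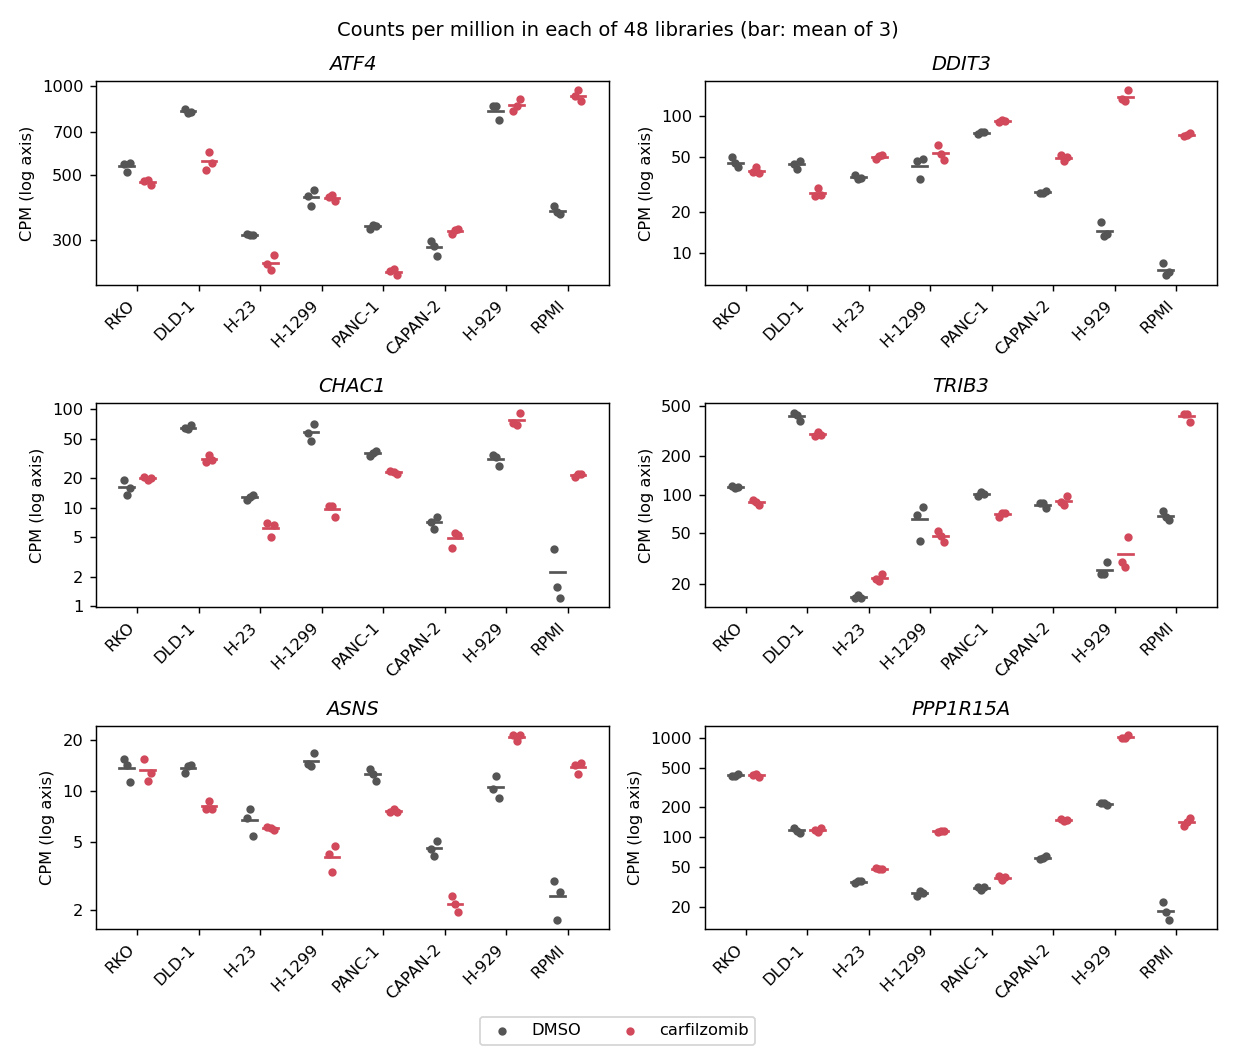
CPM on a log axis in each of the 48 libraries for 6 genes, by line (x axis), with DMSO in grey, carfilzomib in red and bars at the mean of 3. DDIT3 and PPP1R15A rose in both H-929 and RPMI, whereas ATF4 and TRIB3 lay apart by treatment in RPMI and overlapped in H-929.

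The 6 genes of serine synthesis and mitochondrial one-carbon metabolism all rose in RPMI, and each fell in 3 to 7 other lines. In RPMI 31.3% of all genes were called higher, and in the other lines 5.28% (RKO) to 31.3% (H-1299) were called lower. The share of all genes that fell in as many lines was not computed. PHGDH (ENSG00000092621, GRCh38 chromosome 1, 119648411 to 119744226, plus strand) encodes the first enzyme of serine synthesis, and fell in 7 lines while it rose in RPMI. RPMI read 35.9, 31.1 and 30.04 CPM in the DMSO libraries and 137, 126 and 113 CPM in the carfilzomib libraries, a log2 fold change of 1.96 ± 0.082 (SE, adjusted p = 2.2e-10). H-929 read 174, 176 and 145 CPM in the DMSO libraries and 86.4, 69.7 and 91.9 CPM in the carfilzomib libraries, with -0.997 ± 0.11 (SE, adjusted p = 3.8e-06). The groups were apart in both lines, in opposite directions.

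PHGDH was also the largest called fall of the 38 genes in RKO, at 259, 242 and 237 CPM in the DMSO libraries and 171, 174 and 154 CPM in the carfilzomib libraries and -0.56 ± 0.054 (SE, adjusted p = 3.8e-05). Its other falls ranged from -0.48 in H-1299 to -0.97 in CAPAN-2. PSAT1 (ENSG00000135069, GRCh38 chromosome 9, 78297143 to 78330093, plus strand), the aminotransferase that follows it, fell in 5 lines, rose in RPMI, and had no call in RKO and H-23. H-929 read 167, 174 and 135 CPM in the DMSO libraries and 67.9, 52.5 and 57.6 CPM in the carfilzomib libraries, a log2 change of -1.42 ± 0.12 (SE, adjusted p = 2.2e-07). RPMI read 65.9, 51.3 and 55.3 CPM in the DMSO libraries and 146, 135 and 134 CPM in the carfilzomib libraries, with 1.27 ± 0.079 (SE, adjusted p = 9.0e-09). DLD-1 changed by -1.02 ± 0.068, and in H-1299 the change was -0.54 ± 0.13, with DMSO replicate 2 at 210 CPM beside 322 and 328 CPM in replicates 1 and 3.

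PSPH, the phosphatase that completes serine synthesis, fell in 5 lines, most in H-929 (-1.30 ± 0.097 (SE, adjusted p = 8.8e-08)), and rose in RPMI (0.87 ± 0.064 (SE, adjusted p = 5.4e-08)). SHMT2, which moves a one-carbon unit from serine to folate in mitochondria, fell in 7 lines and rose in RPMI by 0.48 ± 0.064, although its calls in RKO, H-23 and H-1299 were -0.20, -0.11 and -0.24 and were lost without carfilzomib replicate 3 in RKO, DMSO replicate 3 or carfilzomib replicate 2 in H-23, and DMSO replicate 3 or carfilzomib replicate 3 in H-1299. MTHFD2, the next enzyme of that pathway, fell in 5 lines and rose in RPMI by 0.34 ± 0.055. ALDH1L2, a mitochondrial formyltetrahydrofolate dehydrogenase, read 575, 588 and 553 CPM in the DMSO libraries and 215, 248 and 257 CPM in the carfilzomib libraries in H-929, a log2 change of -1.25 ± 0.080 (SE, adjusted p = 2.0e-08), and on the common scale its DMSO level there was 616 CPM beside 21.3 CPM in H-1299, the next highest line. Its CAPAN-2 call, 1.20 ± 0.44 at no more than 1.22 CPM, was lost without DMSO replicate 1 or 2 or carfilzomib replicate 3, and was 1.83 without DMSO replicate 3. Small calls of PSPH in PANC-1 (-0.19) and MTHFD2 in CAPAN-2 (-0.24) were also lost, the former without DMSO replicate 3 and the latter without DMSO replicate 1 or 2 or carfilzomib replicate 1 or 2. All 6 genes fell in H-929 (median -1.16, all genes: 26.2% lower) and all 6 rose in RPMI (median 0.89, all genes: 31.3% higher).

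**Figure D3:**
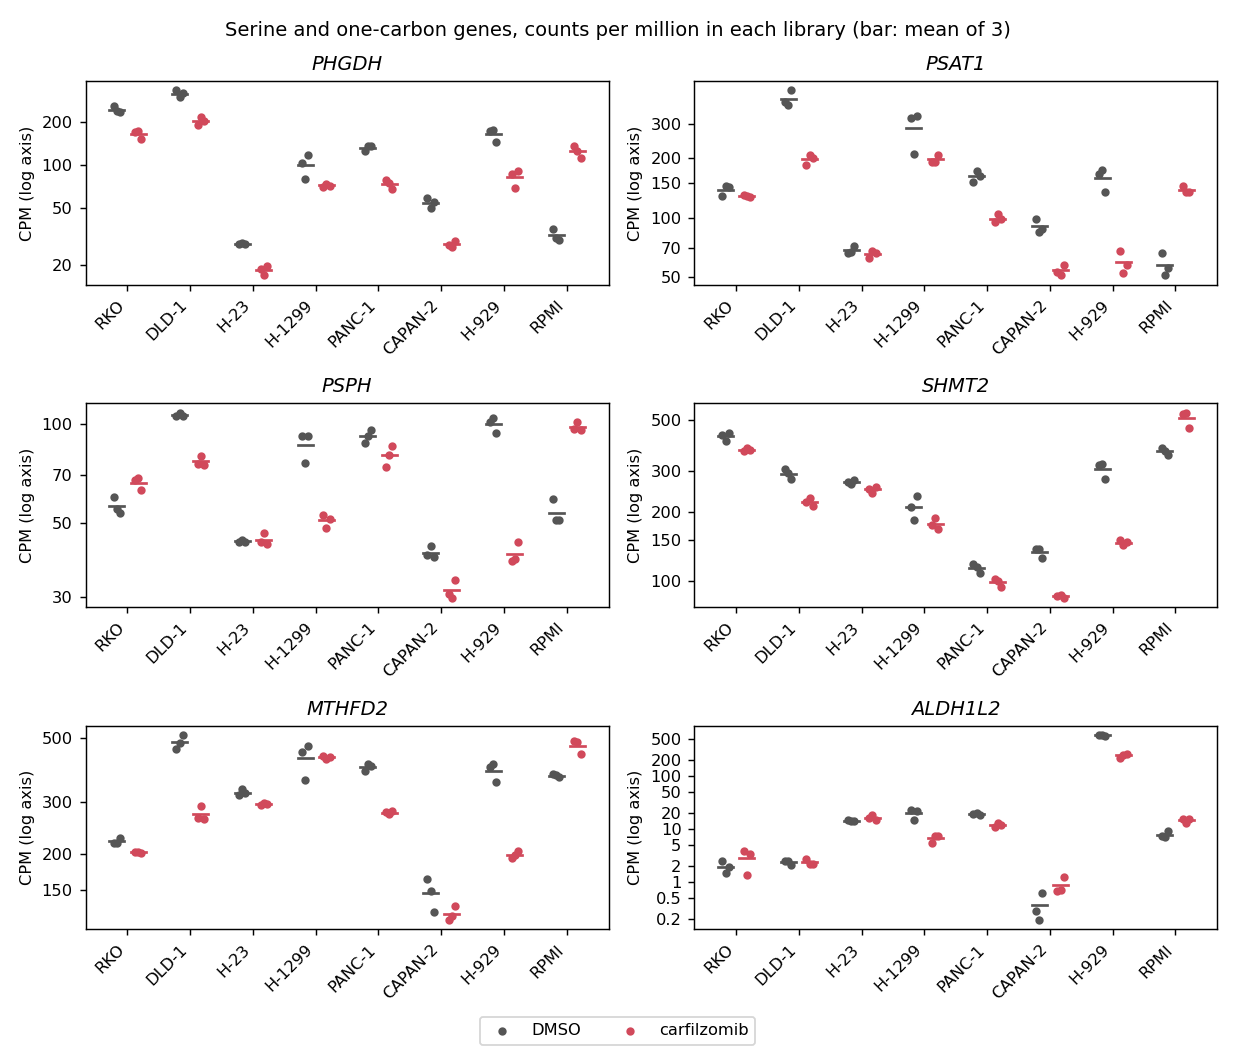
CPM on a log axis in each library for the 6 serine and one-carbon genes, by line, with DMSO in grey, carfilzomib in red and bars at the mean of 3. In H-929 the carfilzomib libraries lie below the DMSO libraries for all 6 genes and in RPMI they lie above.

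Among the other genes of amino acid synthesis, ASNS (ENSG00000070669, GRCh38 chromosome 7, 97852118 to 97872542, minus strand), the asparagine synthetase whose promoter stretch is shown above, rose in both myeloma lines and fell in 4 carcinoma lines. RPMI read 2.97, 1.74 and 2.55 CPM in the DMSO libraries and 14.3, 12.6 and 14.6 CPM in the carfilzomib libraries, a log2 fold change of 2.53 ± 0.19 (SE, adjusted p = 5.1e-08). H-929 read 10.2, 12.3 and 9.06 CPM in the DMSO libraries and 21.4, 19.7 and 21.4 CPM in the carfilzomib libraries, with 0.98 ± 0.16 (SE, adjusted p = 1.7e-04). In H-1299 the values were 14.4, 14.1 and 16.7 CPM in the DMSO libraries and 4.26, 3.31 and 4.74 CPM in the carfilzomib libraries, a log2 change of -1.89 ± 0.14 (SE, adjusted p = 1.1e-07). The groups did not overlap in these lines. CAPAN-2, DLD-1 and PANC-1 changed by -1.09, -0.75 and -0.72, and RKO and H-23 showed no call. ASNS exons overlap AC079781.5 on the same strand, where strand cannot separate the reads, so the level of ASNS is uncertain.

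CTH, which makes cysteine from cystathionine, was higher in 4 lines and had no call in the other 4. It was the largest called rise of the 38 genes in H-23, with 23.8, 25.1 and 22.8 CPM in the DMSO libraries and 79.4, 99.5 and 94.2 CPM in the carfilzomib libraries and a log2 fold change of 1.94 ± 0.072 (SE, adjusted p = 7.9e-10). RPMI gave 11.2, 7.65 and 7.496 CPM in the DMSO libraries and 48.7, 51.1 and 54.5 CPM in the carfilzomib libraries, with 2.59 ± 0.12 (SE, adjusted p = 7.9e-10). The rises in CAPAN-2 and H-1299 were 1.15 ± 0.074 and 0.89 ± 0.15. H-929 overlapped between treatments, with 63.8, 60.9 and 45.4 CPM in the DMSO libraries and 65.6, 60.8 and 73.3 CPM in the carfilzomib libraries and 0.23 ± 0.13 (SE, adjusted p = 0.15). The serine and one-carbon genes, in contrast, fell or had no call in H-23 and H-1299.

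GPT2, a mitochondrial alanine aminotransferase, fell in 5 lines and rose in RPMI by 1.20 ± 0.078. PYCR1 and ALDH18A1, enzymes of proline synthesis, fell in 6 and 5 lines. In RPMI, ALDH18A1 was the largest called fall of the 38 genes, at 169, 171 and 179 CPM in the DMSO libraries and 97.2, 104 and 91.02 CPM in the carfilzomib libraries and -0.83 ± 0.059 (SE, adjusted p = 3.5e-08), while PYCR1 had no call there (0.01 ± 0.065 (SE, adjusted p = 0.88)). The groups of ALDH18A1 were apart. In H-929, ALDH18A1 changed by -1.26 ± 0.10 (SE, adjusted p = 2.4e-07).

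PCK2, a mitochondrial enzyme that makes phosphoenolpyruvate, is uncertain because its identifier is shared with a second row, and its values scattered within groups. It was the largest called rise in RKO, where it read 4.33, 5.08 and 5.59 CPM in the DMSO libraries and 24.5, 8.36 and 20.6 CPM in the carfilzomib libraries, a log2 fold change of 1.83 ± 0.31 (SE, adjusted p = 0.0031). In DLD-1 it was called lower, -2.74 ± 0.88 (SE, adjusted p = 0.045), from 8.37, 0.5296 and 1.098 CPM in the DMSO libraries and 0.574, 0.675 and 0.244 CPM in the carfilzomib libraries. The DLD-1 call rests on DMSO replicate 1: without it the log2 change was -0.68 and was not called, and it was also lost in DESeq2 and without any 1 of the carfilzomib libraries.

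Each of the 7 amino acid transporters fell in 4 to 7 lines. Of all genes tested in a line, 5.28% (RKO) to 32.2% (RPMI) were called lower. The share of all genes that fell in as many lines was not computed. SLC7A5 (ENSG00000103257, GRCh38 chromosome 16, 87830023 to 87869488, minus strand), the light chain of the large neutral amino acid carrier LAT1, fell in 7 lines. CAPAN-2 read 917, 889 and 1005 CPM in the DMSO libraries and 461, 450.2 and 474 CPM in the carfilzomib libraries, a log2 change of -1.02 ± 0.059 (SE, adjusted p = 3.3e-09). H-1299 read 493, 409 and 561 CPM in the DMSO libraries and 243, 244 and 233 CPM in the carfilzomib libraries, with -1.02 ± 0.086 (SE, adjusted p = 3.8e-07). RPMI was the line with no call, at 343, 312 and 325 CPM in the DMSO libraries and 335, 308 and 297 CPM in the carfilzomib libraries and -0.06 ± 0.059 (SE, adjusted p = 0.40), and its groups overlapped.

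SLC3A2, the heavy chain that pairs with SLC7A5, did not follow it in RPMI. There SLC3A2 read 239, 233 and 229.8 CPM in the DMSO libraries and 691, 742 and 763 CPM in the carfilzomib libraries, a log2 fold change of 1.65 ± 0.055 (SE, adjusted p = 3.5e-11), with the groups far apart. It fell in 5 lines, with log2 changes from -0.24 in H-1299 to -0.49 in H-929. The H-1299 call was lost without DMSO replicate 1 or 3 or carfilzomib replicate 1 or 3, and in DESeq2.

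SLC1A4, a neutral amino acid transporter, was lower in 7 lines, with no call in RKO. It was the largest called fall of the 38 genes in CAPAN-2, with 13.6, 13.6 and 14.6 CPM in the DMSO libraries and 4.304, 3.83 and 4.605 CPM in the carfilzomib libraries and a log2 change of -1.72 ± 0.11 (SE, adjusted p = 1.5e-08). In RPMI it read 412, 388 and 388 CPM in the DMSO libraries and 363, 299.6 and 262 CPM in the carfilzomib libraries, a small change of -0.36 ± 0.091 (SE, adjusted p = 0.0033). SLC7A1, the cationic amino acid transporter, was the largest called fall in H-929, at 144, 137 and 129.8 CPM in the DMSO libraries and 42.5, 35.7 and 55.4 CPM in the carfilzomib libraries and -1.62 ± 0.13 (SE, adjusted p = 1.7e-07). The H-929 groups were well apart, while the RPMI call for SLC7A1 was 0.18, and was lost without DMSO replicate 2 or 3 or carfilzomib replicate 1 or 3, and with no filter.

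SLC6A9, the glycine transporter GlyT1, had the widest span of the carriers. It read 6.16, 7.16 and 8.88 CPM in the DMSO libraries and 53.9, 57.8 and 51.5 CPM in the carfilzomib libraries in RPMI, a log2 fold change of 2.85 ± 0.11 (SE, adjusted p = 1.3e-10). In H-1299 it changed by -1.86 ± 0.33 (SE, adjusted p = 3.3e-04), at 5.27 CPM or less in every library, and its H-23 call, -0.38, was lost without DMSO replicate 2 or 3 or carfilzomib replicate 2. SLC38A2, a sodium-coupled neutral amino acid transporter, fell in 4 lines, most in H-1299 (-0.54), and rose in RPMI by 0.60 ± 0.069. SLC1A5, the glutamine transporter ASCT2, fell in 5 lines and rose in H-23 and RPMI, by 0.43 ± 0.039 and 0.46 ± 0.064. Its CAPAN-2 call, -0.21, was lost without carfilzomib replicate 2.

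The 3 secreted factors were expressed in different lines. GDF15 (ENSG00000130513, GRCh38 chromosome 19, 18374731 to 18389176, plus strand), a stress hormone of the TGF-beta superfamily, was at or below 0.865 CPM in every library of the myeloma lines and was not tested there. It was called higher in RKO, with 27.2, 21.3 and 26.7 CPM in the DMSO libraries and 34.9, 36.2 and 38.2 CPM in the carfilzomib libraries and a log2 fold change of 0.54 ± 0.10 (SE, adjusted p = 0.0055). DLD-1 read 204, 191 and 175 CPM in the DMSO libraries and 142, 143 and 166 CPM in the carfilzomib libraries, a log2 change of -0.34 ± 0.071 (SE, adjusted p = 0.0068). PANC-1, which had the highest level, read 404, 404 and 359.8 CPM in the DMSO libraries and 474, 429 and 382 CPM in the carfilzomib libraries, with overlapping groups and 0.14 ± 0.065 (SE, adjusted p = 0.11). In H-1299 its log2 change was -1.86 ± 0.36, at a level of at most 3.00 CPM.

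STC2, a secreted glycoprotein, rose in H-929 by 0.70 ± 0.11 and in RPMI by 1.44 ± 0.069, and fell in H-1299, PANC-1 and CAPAN-2. H-1299 read 60.1, 45.1 and 63.5 CPM in the DMSO libraries and 19.1, 17.1 and 14.7 CPM in the carfilzomib libraries, a log2 change of -1.72 ± 0.12 (SE, adjusted p = 9.4e-08). INHBE, the inhibin beta E subunit, was the largest called rise of the 38 genes in RPMI. It read 2.09, 1.24 and 1.28 CPM in the DMSO libraries and 31.2, 26.6 and 25.9 CPM in the carfilzomib libraries, a log2 fold change of 4.25 ± 0.17 (SE, adjusted p = 1.6e-10). In H-929 it read 15.5, 16.3 and 9.06 CPM in the DMSO libraries and 23.3, 28.9 and 27.6 CPM in the carfilzomib libraries, with 0.96 ± 0.19 (SE, adjusted p = 8.6e-04), and the groups did not overlap in either line.

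**Figure D4:**
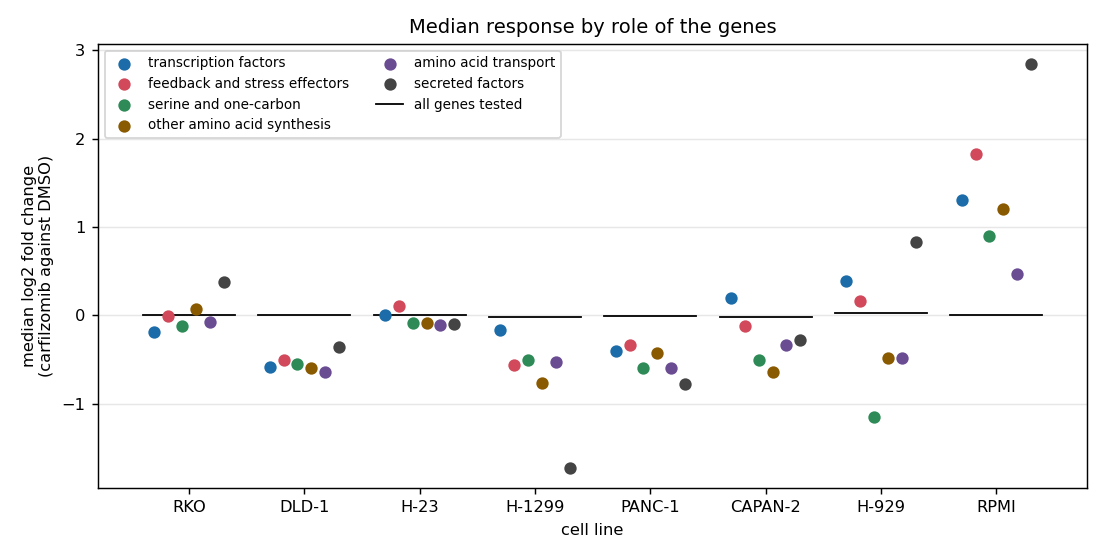
Median log2 fold change of the tested genes of each role (points) in each line (x axis), with the median of all genes tested as a black line. All 6 points of RPMI lie above that line and all 6 points of DLD-1 and PANC-1 lie below it.

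A joint fit of the 48 libraries then asked whether the lines differed in their response. Its error was the spread between replicates within a group, not between lines, so its p-values hold for these 8 lines only. All 37 tested genes differed between lines, beside 67.4% of all 22309 genes in that fit, and all 37 differed between lines in DMSO, beside 97.5% of all genes. The average response over the 8 lines was called for 28 genes (all genes: 43.7%), higher for 6 and lower for 22 (all genes: 19.8% and 23.9%). PPP1R15A, DDIT3, CTH, CEBPB, KLHL24 and TRIB3 were the 6, with averages of 1.13, 0.91, 0.85, 0.42, 0.22 and 0.18 (log2). RPMI moved several averages. Without RPMI, 4 genes were higher and 27 lower (of all 22119 genes in that fit, 3992 were higher and 5069, or 22.9%, lower). TRIB3 turned to -0.16 (adjusted p = 0.0071), CEBPB fell to 0.08 with no call (adjusted p = 0.20), and ATF4 moved from -0.05 with no call to -0.23 (adjusted p = 4.9e-12).

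The myeloma lines were set against the mean of the other 6. Of the 37 genes, 28 differed (all genes: 44.3%), 24 with a higher response in the myeloma lines and 4 with a lower one (all genes: 19.1% and 25.2%). NUPR1 had the largest difference, 4.05 ± 0.89 (SE, adjusted p = 1.5e-04), with a wide error. It passed the filter on low counts in only 4 lines, of which RPMI was the only myeloma line. Its libraries held at most 10 counts in H-929 and at most 1 in CAPAN-2, so its rank is uncertain. The difference was 3.21 ± 0.14 (SE, adjusted p = 7.3e-23) for CHAC1, 2.97 ± 0.082 (SE, adjusted p = 4.7e-30) for DDIT3, 2.82 ± 0.31 (SE, adjusted p = 1.6e-10) for INHBE and 2.78 ± 0.11 (SE, adjusted p = 1.7e-24) for DDIT4 (log2). ASNS and CEBPB followed with differences of 2.42 ± 0.13 and 2.15 ± 0.099 (SE). STC2 differed by 2.21 ± 0.80 (SE, adjusted p = 0.021), again with a wide error. It held at most 5 counts in any library of RKO and DLD-1. The 4 genes with a lower response were KLHL24, XPOT, ALDH18A1 and SLC7A1, of which ALDH18A1 had the largest difference, -0.92 ± 0.053 (SE, adjusted p = 3.3e-19). The p-values of this contrast measure the spread between replicates within a group, not between lines, and do not extend to other myeloma lines. This contrast also averages 2 lines that themselves differed.

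H-929 and RPMI were therefore compared directly. Of the 37 genes, 32 had a lower response in H-929 than in RPMI and 0 a higher one by edgeR (all genes: 40.5% either way, 21.5% lower, 18.9% higher), with 0 higher also without adjustment. DDIT3 was not among them, with a difference of -0.12 ± 0.15 (SE, adjusted p = 0.58). ATF4 differed by -1.32 ± 0.078 (SE, adjusted p = 3.2e-18) and TRIB3 by -2.25 ± 0.19 (SE, adjusted p = 4.5e-13). Among the serine genes the difference was -3.05 ± 0.14 (SE, adjusted p = 1.0e-21) for PHGDH and -2.78 ± 0.16 (SE, adjusted p = 1.9e-18) for PSAT1.

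In calls per line, 34 of the genes were tested in both myeloma lines. Of these, 8 were higher in both (13.5% of all 13498 genes tested in both), namely DDIT3, CEBPB, CHAC1, DDIT4, PPP1R15A, ASNS, STC2 and INHBE. A further 13 were lower in H-929 and higher in RPMI (all genes: 4.70%): ATF5, CEBPG, XPOT, the 6 serine and one-carbon genes, SLC3A2, SLC7A1, SLC38A2 and SLC1A5. ALDH18A1 and SLC1A4 were lower in both (all genes: 17.8%). The genes shared by both rises are the CHOP gene, its partner CEBPB, 3 feedback genes or effectors, the amino acid synthesis gene ASNS and the secreted STC2 and INHBE. Those that moved in opposite directions are mostly genes of amino acid supply, with ATF5, CEBPG and XPOT beside them. Summed plasma cell markers after carfilzomib lay at 2706 to 2724 CPM in H-929 and 839 to 994 CPM in RPMI, lower than in DMSO in both lines, and their part in the responses was not tested. In bulk libraries of a single cell line, fewer cells with these markers and less of their RNA per cell cannot be told apart.

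**Figure D5:**
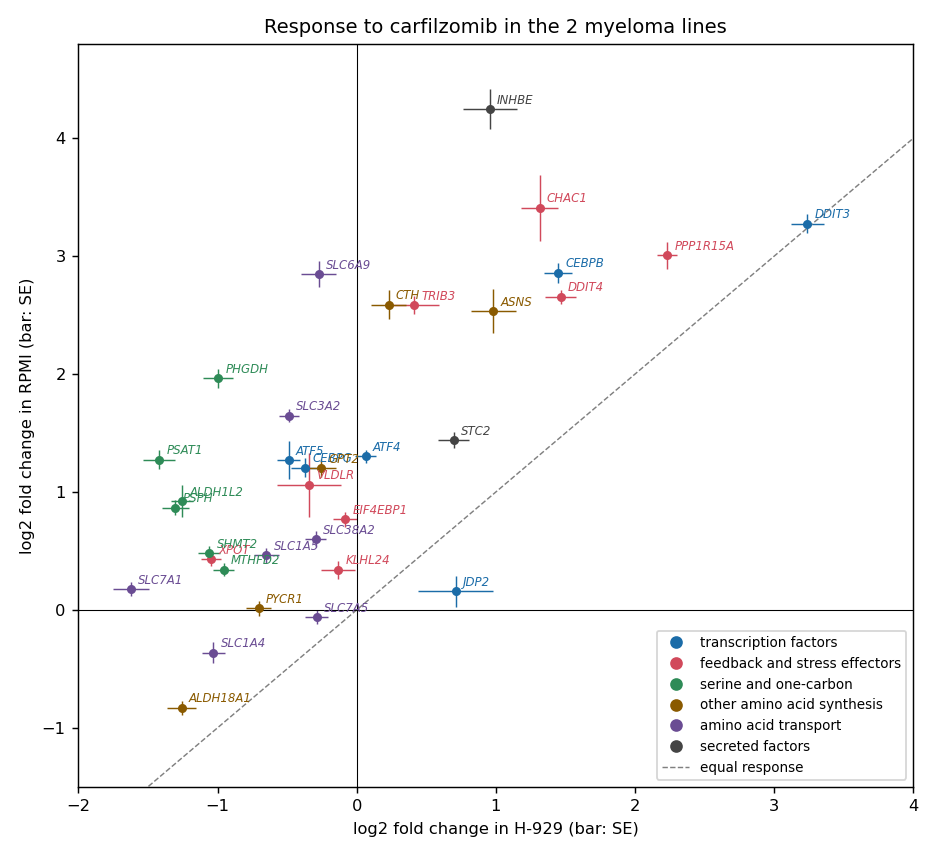
Log2 fold change of each gene tested in both myeloma lines, H-929 on the x axis and RPMI on the y axis, with SE bars, colours for roles and a dashed line of equal response. DDIT3 lies near that line at 3.24 and 3.28, and the serine and one-carbon genes lie in the upper left, negative in H-929 and positive in RPMI.

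Lines of 1 tumour type differed in the other tissues as well. In colon, 20 genes had a higher response in RKO than in DLD-1 and 0 a lower one by edgeR (0 also without adjustment), where 4.08% of all genes differed, 1.83% higher and 2.25% lower. The difference was 1.36 ± 0.22 (SE, adjusted p = 4.2e-05) for CHAC1, 1.11 ± 0.22 (SE, adjusted p = 0.001) for DDIT4 and 0.87 ± 0.16 (SE, adjusted p = 3.2e-04) for GDF15. Without replicate 1 of every group the number of genes was 9. In lung, 21 genes had a higher response in H-23 than in H-1299 and 3 a lower one (all genes: 30.7% either way, 17.3% and 13.3%). DDIT4 differed by 2.46 ± 0.20 (SE, adjusted p = 1.0e-13) and ASNS by 1.78 ± 0.22 (SE, adjusted p = 8.4e-09), while PPP1R15A went the other way, -1.59 ± 0.097 (SE, adjusted p = 3.9e-17). In pancreas, 15 genes had a higher response in CAPAN-2 than in PANC-1 and 6 a lower one (all genes: 24.9% either way, 13.5% and 11.4%), with 1.30 ± 0.18 (SE, adjusted p = 1.2e-07) for CTH and 0.95 ± 0.097 (SE, adjusted p = 1.1e-10) for PPP1R15A. For CHAC1 the pancreatic lines did not differ beyond their error, 0.11 ± 0.23 (SE, adjusted p = 0.86).

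Basal levels were compared on a scale common to all libraries. RPMI had the lowest DMSO level of the 8 lines for 7 genes, among them DDIT3 (8.55 CPM), CHAC1 (2.47 CPM), ASNS (2.72 CPM) and PPP1R15A, and the highest carfilzomib level for 14 of 37. H-929 had the highest DMSO level for 10 genes and H-23 the lowest for 13. For DDIT3 the order in DMSO from low to high was RPMI, H-929, CAPAN-2, H-23, RKO, DLD-1, H-1299 and PANC-1, and H-929 was highest after carfilzomib with 133 CPM. For ATF4 the order in DMSO was H-23, CAPAN-2, PANC-1, RPMI, H-1299, RKO, DLD-1 and H-929. The level of a line in DMSO enters its fold change, so order and response are not independent.

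The likeness of responses across the 8 lines was described by Pearson's r of the log2 fold changes, with 8 points that share their libraries within a line. Over 30 genes, r with ATF4 had a median of 0.70 (all genes: 0.03), and 9 genes exceeded 0.8, of which CEBPG was the closest at 0.93. Without RPMI the median was 0.09 (all genes: 0.02) and none exceeded 0.8, so the likeness rests on that line. For DDIT3 the median was 0.47 (all genes: -0.03), and without RPMI it was -0.07, about that of all genes (-0.08). CEBPB was the nearest to DDIT3, at 0.90 with RPMI and 0.87 without it.

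Further genes of the pathway came from lists drawn up with the 38. Of the 20 other reported ATF4 targets, 15 rose and 2 fell of 18 tested in RPMI, with a median of 0.87, whereas 5 rose and 12 fell of 18 in H-929 (median -0.82). ATF3, a stress-induced factor, had the largest rise of that list in RPMI, 3.05, and the proapoptotic BBC3 in H-929, 2.74. In RKO, DLD-1 and PANC-1, 3 of 18, 14 of 19 and 13 of 19 fell. Of all genes, 31.3% were higher and 32.2% lower in RPMI, and 26.4% and 26.2% in H-929. The shares lower were 5.28% in RKO, 12.1% in DLD-1 and 18.2% in PANC-1. H-23 had 5 higher and 4 lower of 19 (all genes: 17.7% and 16.2%). H-1299 had 5 and 8 of 18 (29.8% and 31.3%) and CAPAN-2 had 5 and 9 of 18 (25.7% and 26.7%), and in both the share of higher genes lay near the background.

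The eIF2 list, of the kinases, eIF2, eIF2B and the phosphatase subunits, had 15 genes. In H-929, 2 were higher and 10 lower (all genes: 26.4% and 26.2%), whereas CAPAN-2 had 8 rises and 1 fall (25.7% and 26.7%). RPMI had 5 higher and 4 lower, near its background of 31.3% and 32.2%. H-1299 gave 6 and 4 (29.8% and 31.3%), H-23 5 and 3 (17.7% and 16.2%), PANC-1 4 and 5 (20.5% and 18.2%), and DLD-1 1 and 6 (10.9% and 12.1%). In RKO, EIF2S2 was lower and no other gene was called. DNAJC3, an inhibitor of eIF2 kinases, had its largest rises in H-1299 (1.38) and RPMI (0.75). The ATF6 and XBP1 arm of the unfolded protein response, also 15 genes, gave more rises than falls in CAPAN-2 (12 and 2), H-1299 (9 and 2), RPMI (9 and 4) and H-23 (6 and 4). It gave more falls in H-929, with 2 higher and 11 lower, and in PANC-1, with 3 and 9. DLD-1 had 4 and 4, and in RKO the smallest adjusted p by edgeR was 0.11, for XBP1. The shares of all genes in each line are those given for the eIF2 list, and in RKO 3.62% higher and 5.28% lower. PDIA4, a protein disulfide isomerase, had the largest fall of that list in H-929, -1.36. The responses of these lists and of the 38 genes share the same DMSO libraries within each line.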

How the data were processed

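The authors deposited raw read counts for 48 libraries in 1 matrix, per the file header with a symbol and an Ensembl identifier for each gene. Per the labels, libraries were stranded total RNA libraries. The submitters' processing notes name bcl2fastq 2.19, FastQC, Trimmomatic, HISAT2, DESeq2 and build hg38, with no role or order. The counting program, the annotation and the use of strand are not given in the sources used here, so genes that overlap on opposite strands are uncertain. Exons of ASNS, DDIT3, PYCR1 and ATF5 also overlap another gene on the same strand, which strand cannot resolve. Groups came from the labels, and replicates are labelled biological. Whether they were separate cultures is not said, so p-values measure the spread between these samples. Every count column matched a sample.

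Each line was fitted on its 6 libraries with edgeR 4.0.16 in R 4.3.3 (TMM factors, filterByExpr, quasi-likelihood F test, Benjamini-Hochberg over all genes tested, threshold 0.05), and all 48 libraries in 1 fit of 16 groups for averages and differences between lines, with trended dispersion. SE is the log2 fold change divided by the root of F. The procedure was also run on simulated counts with the same dispersion for every gene, unlike these data, and no result here rests on it. No 2 replicates agreed within counting noise: the lowest chi-square per df was 3.33. In no line did all 3 same-numbered pairs deviate together (correlation over 0.1), so replicate numbers were not used for pairing. Gene coordinates are from GENCODE release 29 (GRCh38). The identifiers of SESN2 and PCK2 are not in it.

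The genes, lists and tests were chosen with earlier results of these data known. In full are given 12 genes fixed by name, and per line the called gene of the 38 that rose most and the one that fell most, if the higher group averaged 50 counts or more and treatments did not overlap. Alternatives were DESeq2 1.42.0 size factors and Wald test, library totals, no filter, a replicate block, and leaving out each library, each replicate number, or RPMI. Summing rows that share an identifier and leaving out PCK2 were chosen after seeing the data. The marker lists for fibroblasts and other blood cells summed to at most 171 and 24.3 CPM in any library.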

Additional observations from a re-analysis of the deposited data

Results flagged for a closer look

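The response to carfilzomib differed between the 8 lines by a test of the difference itself, the F test of the joint edgeR fit, for all 37 tested genes of the 38. Of all 22309 genes in that fit, 67.4% differed. F was 106 for ATF4, 213 for DDIT3 and 102 for CHAC1. It was 71.7 for TRIB3 and 67.2 for ASNS. The difference between the myeloma lines and the other 6 was called for 28 of the 37 genes (all genes: 44.3%). Between H-929 and RPMI it was called for 32 (all genes: 40.5%), and between H-23 and H-1299 for 24 (30.7%). CAPAN-2 and PANC-1 differed for 21 genes (24.9%) and RKO and DLD-1 for 20 (4.08%). These contrasts share libraries and are not independent of one another.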

How the results depend on the processing

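No call among the 205 calls of single genes in single lines changed sign under any alternative run. Of these, 182 were kept in every fit without 1 library and 23 were lost in at least 1, and 5 were lost under another alternative, among them DDIT3 and TRIB3 in H-1299. The number of genes higher in RKO, 4, ranged from 2 to 4 over the fits without 1 library. In DLD-1 it was 0, and 1 under library totals, the range without 1 library being 0 to 1. The number with a different response in RKO and DLD-1, 20, ranged from 9 to 18 over the fits without 1 replicate number. The other counts of genes stayed within 1.5 times under every alternative run. Library totals raised the share of higher calls among all genes called from 40.6% to 60.9% in RKO and from 47.5% to 60.3% in DLD-1. In H-1299 they shifted the all-gene median log2 change from -0.02 to -0.12. The median of the 38 genes under library totals was 0.01 in RKO, -0.52 in DLD-1 and -0.65 in H-1299. With no filter, the median of all genes in H-929 was 0.32.

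With the replicate number as a block, 4 genes were higher and 8 lower in RKO, 30 were higher in RPMI, and 16 differed between RKO and DLD-1. No count moved by over 1.5 times. The numbers share only a name, since same-numbered libraries did not deviate together. Depth limits what can be said of NUPR1, INHBE and ALDH1L2 where they read under 1 CPM.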
